A study of Mus musculus with 4 samples.

Results

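The module of MHC class I and II presentation genes comprises 34 genes of the 32285 measured, taken as a fixed list of symbols: 4 class II chains, 7 class II loading genes, 3 class I heavy chain and light chain genes, 9 class I processing genes, 3 class I chaperones, 6 class Ib genes and 2 transactivators. All 34 symbols were found, each in 1 row of the gene list. Their RNA was followed in leukocytes of CT26 tumours. CT26 is a colon carcinoma line of Balb/c origin that grows in Balb/c mice, which were 9 weeks old here. The tumour-bearing mice of 2 libraries had received liproxstatin-1, which blocks ferroptosis (death through iron-dependent lipid peroxidation), for 8 days, and 2 libraries came from control tumours. What the control mice were given is not stated in the sources used here. In all 4 libraries, CD45+ cells (leukocytes) had been taken up on magnetic beads before they were sequenced as 10x Genomics droplet libraries that count unique molecular identifiers (UMIs). The labels do not say whether the 2 replicates of a group were separate animals, so p-values measure only the spread between libraries, which may be technical. The series title concerns ferroptosis of neutrophils in tumours, and the comparison here asks how presentation genes differ in each leukocyte class when ferroptosis is inhibited.

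Class I molecules show peptides from inside the cell to CD8 T cells. The immunoproteasome subunits Psmb8, Psmb9 and Psmb10 and the activator Psme1 and Psme2 shape the peptides, the Tap1 and Tap2 pump carries them into the endoplasmic reticulum, Erap1 trims them, and Tapbp with Calr, Canx and Pdia3 helps load them on H2-K1 or H2-D1 paired with B2m. Class II molecules show peptides from endosomes to CD4 T cells: H2-Aa with H2-Ab1 forms I-A, H2-Eb1 is the beta chain of I-E, Cd74 is the invariant chain, the protease Ctss and the thiol reductase Ifi30 act in endosomes, H2-DMa with H2-DMb1 or H2-DMb2 exchanges the peptide, and H2-Oa with H2-Ob restrains that exchange. Ciita is the coactivator that class II transcription depends on, and Nlrc5 plays the like part for class I. Dendritic cells and B cells carry class II constantly, macrophages mainly after interferon-gamma, and T cells and NK cells of the mouse make little of it.

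The liproxstatin libraries held 8659 and 9299 barcodes and the control libraries 4138 and 6996, with 83129874 to 168597163 UMIs per library. After filters and removal of called doublets, 25730 cells remained, with a median of 15435 to 19429 UMIs per cell by library. Ptprc, the gene of CD45, had a UMI in 81.9% to 93.5% of the kept cells by library, and 199 of the 25730 cells lay in clusters of non-immune cells. Clusters were made without any member gene and named by marker genes that include no member, so short names such as macrophages stand for clusters that resemble that cell type. Genes of the pathway that are not members, such as Cd83, were not left out of the clustering. Unnamed clusters of mostly shallow cells held 556 and 211 cells of the liproxstatin libraries and 615 and 473 of the control libraries and were not tested. Pairs of libraries shared 4 to 22 barcodes. UMIs were summed per library and class, levels are given as CPM (UMIs of the gene scaled to a common total per class and library), and treatment effects are log2 fold changes of liproxstatin over control with their standard error (SE) from edgeR's quasi-likelihood test, with Benjamini-Hochberg adjustment over all genes tested in that class and a threshold of 0.05. Levels of different genes are not compared, because 3' UMI counts depend on each gene's 3' end. The reads of class I heavy chain and class Ib genes, and those of H2-DMb1 and H2-DMb2, come from near-identical copies, and Balb/c alleles differ from the reference sequence, so the split of UMIs within these families is uncertain.

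Of the 34 genes, 21 lie on chromosome 17, in or beside the mouse MHC. On build GRCm38, H2-Aa spans chr17:34282744-34287823 on the minus strand, H2-Ab1 chr17:34257689-34269419, H2-Eb1 chr17:34305867-34316674, H2-DMb1 chr17:34153072-34160230 and H2-DMb2 chr17:34143307-34151555, all 4 on the plus strand. Ciita lies on chromosome 16 at 10480059 to 10528418. Ciita does not bind DNA itself and is known to dock on factors that sit on the X box and Y box shared by class II promoters. The promoters of 4 class II genes called in macrophage subtypes are shown for these boxes, as 300 bases each from the RefSeq annotation of GRCm38.p6, 5′ to 3′ on the gene's strand, at chr17:34287774-34288073 (minus) for H2-Aa, chr17:34305617-34305916 (plus) for H2-Eb1, chr17:34152941-34153240 (plus) for H2-DMb1 and chr17:34144999-34145298 (plus) for H2-DMb2. Capitals mark, first, the X box core AACNGATGA or, in H2-Aa, the X2 element TGACGTCA, and second, the Y box core TGATTGG.
H2-Aa: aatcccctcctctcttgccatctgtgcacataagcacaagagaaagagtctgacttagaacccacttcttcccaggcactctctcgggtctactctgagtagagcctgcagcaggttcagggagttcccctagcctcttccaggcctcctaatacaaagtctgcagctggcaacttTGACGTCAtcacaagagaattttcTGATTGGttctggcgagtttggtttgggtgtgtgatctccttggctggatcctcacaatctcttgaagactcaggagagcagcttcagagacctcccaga
H2-Eb1: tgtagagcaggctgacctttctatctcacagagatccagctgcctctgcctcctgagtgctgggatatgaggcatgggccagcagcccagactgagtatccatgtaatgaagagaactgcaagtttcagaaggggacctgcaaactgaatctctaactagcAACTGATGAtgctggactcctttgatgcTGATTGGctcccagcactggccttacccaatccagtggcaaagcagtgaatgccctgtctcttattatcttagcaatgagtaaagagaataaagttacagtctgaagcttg
H2-DMb1: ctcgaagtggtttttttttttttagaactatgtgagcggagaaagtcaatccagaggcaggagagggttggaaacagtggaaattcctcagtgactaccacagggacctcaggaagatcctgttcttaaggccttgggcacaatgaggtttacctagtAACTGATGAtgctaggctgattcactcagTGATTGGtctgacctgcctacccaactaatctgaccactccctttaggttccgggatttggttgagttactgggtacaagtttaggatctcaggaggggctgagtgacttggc
H2-DMb2: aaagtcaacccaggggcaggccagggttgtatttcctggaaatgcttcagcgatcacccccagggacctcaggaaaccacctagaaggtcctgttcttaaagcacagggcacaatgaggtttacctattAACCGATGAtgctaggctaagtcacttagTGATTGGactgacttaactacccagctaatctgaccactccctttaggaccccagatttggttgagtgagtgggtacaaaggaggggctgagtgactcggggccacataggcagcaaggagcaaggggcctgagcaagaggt
The X element starts 24 bases before the Y box in H2-Aa, 28 in H2-Eb1 and 29 in both H2-DMb1 and H2-DMb2, and the Y box starts 50, 61, 63 and 92 bases before the gene start in RefSeq, in that order. The letters were chosen after these promoters had been read, both strands were searched, and the motifs do not overlap each other in these 4. AACNGATGA occurs in 213 of 32851 RefSeq promoters of this length (0.648%), TGACGTCA in 588 (1.79%) and TGATTGG in 2568 (7.82%). Among the 29 members with a promoter in that table, AACNGATGA occurs in 3 (H2-Eb1, H2-DMb1 and H2-DMb2), TGACGTCA in H2-Aa alone and TGATTGG in 16. These 16 include class I side genes such as H2-K1, H2-D1, Tap1 and Psmb9. H2-DMa, also called in a macrophage subtype, has none of these motifs in its promoter. H2-Ab1 and Cd74, also called in macrophage subtypes, have no promoter in that table and were not searched. A match is a description of letters and not a measured site.

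Class II RNA was concentrated in dendritic cells. Together, H2-Aa, H2-Ab1, H2-Eb1 and Cd74 made up 41347 and 42545 CPM of dendritic cells in the liproxstatin libraries and 39788 and 43230 CPM in the control libraries. That is 4.17% of all UMIs of that class. B cells followed at 16665 ± 2341 CPM (SD over all 4 libraries), then monocytes at 9715 ± 1642, plasmacytoid dendritic cells (pDCs) at 8799 ± 1308 and macrophages at 7977 ± 1874. The last 3 overlapped in their ranges, so their order is not firm. Neutrophils had 540 ± 105 CPM and regulatory T cells, CD8 T cells and NK cells 327 ± 32.7, 247 ± 174 and 240.3 ± 65.0 CPM. Levels by class are described without a test.

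Within the myeloid cells, the summed class II chains covered a wide range. cDC2, which present mainly to CD4 T cells, had 46422 ± 1199.5 CPM and cDC1, known for cross-presentation to CD8 T cells, 40950 ± 2069.5 CPM, with ranges that did not overlap. Among macrophages, the Cxcl9 Cxcl13 cluster (chemokines that draw activated T cells and B cells) had 16838 ± 2612 CPM and the Cd83 Rasgef1b cluster 15809 ± 1104. Cycling macrophages had 5723 ± 1337 CPM, hypoxic macrophages 4278 ± 1585, the resident-like Lyve1 Cd163 macrophages 4086 ± 849 and the Plau Ccnd1 macrophages 3183 ± 803. The Ung Mcm6 macrophages had 4822 ± 499 CPM and the Cxcl14 Ms4a7 macrophages 9097.5 ± 1512. Every library of the first 2 clusters lay above every library of the class II-poor cycling, hypoxic, resident-like, Plau Ccnd1 and Ung Mcm6 clusters. Monocyte clusters lay between these groups by their means, at 7776 ± 1361 CPM in nonclassical monocytes, 9080.5 ± 1862 in the Vcan F10 cluster and 11763 ± 2363 in the Chil3-high cluster. The cluster that matched the marker list of interferon-response macrophages had 9210.2 ± 898 CPM. Its cells were counted among the monocytes, since its monocyte marker score was higher than its macrophage marker score. Migratory dendritic cells, 120 cells in all, varied widely, with 20303 and 7523 CPM in the liproxstatin libraries and 18340 and 11823 CPM in the control libraries.

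**Figure D1:**
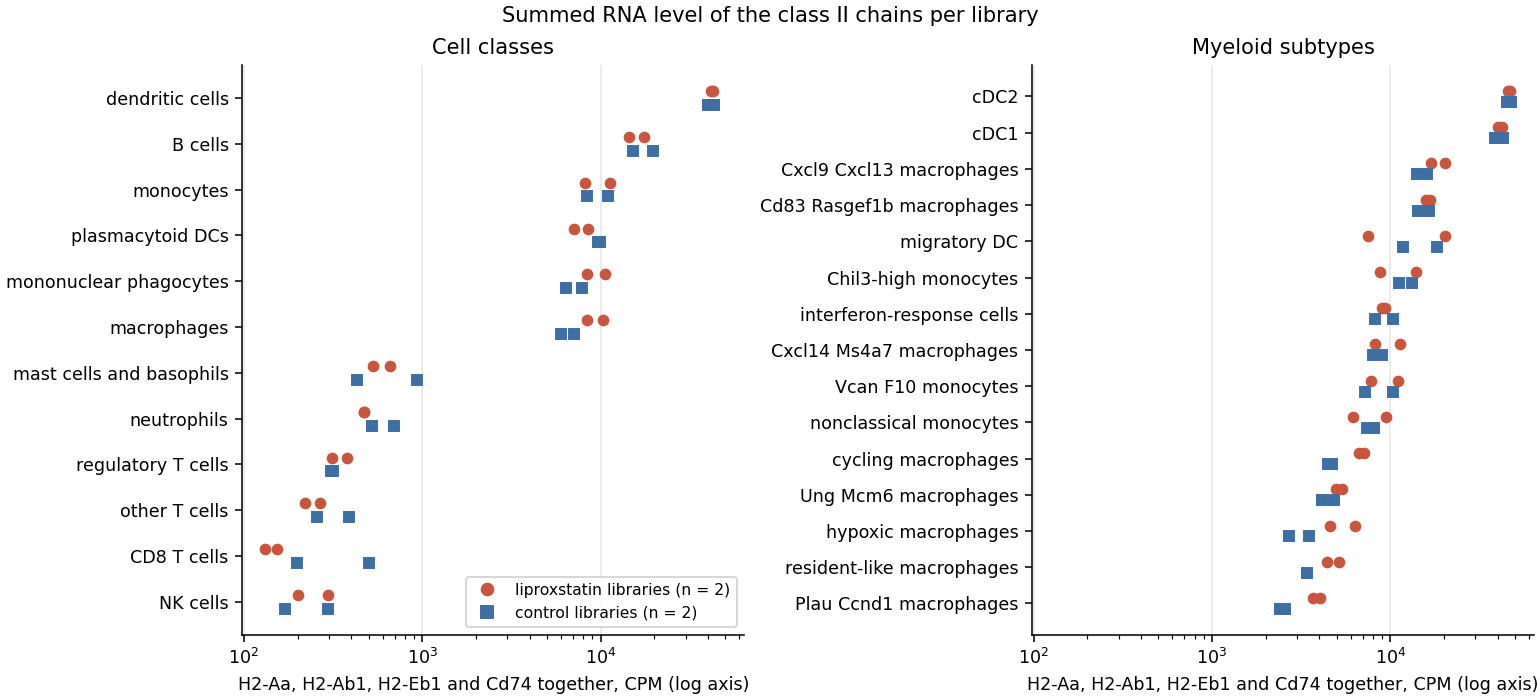
Summed level of H2-Aa, H2-Ab1, H2-Eb1 and Cd74 (CPM, log axis) by cell class (left) and myeloid subtype (right); each point is 1 library, liproxstatin circles above control squares. Dendritic cells lie near 41728 CPM and T cells and NK cells below 1000, and the liproxstatin points lie to the right of the control points in cycling, hypoxic, resident-like and Plau Ccnd1 macrophages.

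Class I RNA was spread over all classes. H2-K1, H2-D1 and B2m together gave 16285 ± 1118 CPM in regulatory T cells, the highest class, 10049 ± 513 in macrophages, 9947 ± 409 in NK cells, 9714 ± 559 in CD8 T cells and 5086 ± 684 in neutrophils, the lowest mean of the classes tested, whose range overlapped that of B cells. Class I processing genes were highest in dendritic cells, at 4713 ± 29.2 CPM for 9 genes summed, and lowest in neutrophils, at 821 ± 125 CPM. Within dendritic cells, cDC1 had 5404 ± 116 CPM of processing genes and cDC2 3364 ± 125, with ranges that did not overlap, while the heavy chains and B2m ran the other way, at 6184 ± 616 CPM in cDC1 and 8222 ± 324 in cDC2.

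In macrophages, the genes of the class II side (the 4 chains, the 7 loading genes and Ciita) mostly had higher levels in liproxstatin tumours, and the class I side had fold changes near 0. Ciita was the 1 member past the threshold, and with macrophages chosen by a marker gate per cell it was not (adjusted p 0.0964), while H2-DMa was (adjusted p 0.0484). It had 21.2 and 25.6 CPM in the liproxstatin libraries, against 16.6 and 15.1 CPM in the control libraries, and the groups did not overlap. Its log2 fold change was 0.60 ± 0.12 (SE, n = 2 libraries per group), with an adjusted p of 0.0406. In the same class 1.17% of all genes tested were called higher with liproxstatin, so 1 of 34 members is a share near the background.

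The class II chains themselves did not pass in macrophages as a whole. H2-Aa had 1457 and 1744 CPM in liproxstatin libraries, against 1199.5 and 975 CPM in control libraries, a log2 fold change of 0.60 ± 0.14 with an adjusted p of 0.0814. H2-Ab1 had 1248 and 1482 CPM with liproxstatin, against 998 and 853 CPM in control (0.60 ± 0.13, adjusted p 0.0509). H2-Eb1 had 1219 and 1523 CPM with liproxstatin, against 969 and 787 CPM in control (0.68 ± 0.16, adjusted p 0.0934). In all 3 the groups did not overlap, and liproxstatin replicate 2 was the highest library. Cd74 had 4492 and 5623 CPM with liproxstatin, against 3935 and 3402 CPM in control (0.50 ± 0.15, adjusted p 0.13). Of the peptide exchange factor H2-DM, H2-DMa had 465 and 540 CPM with liproxstatin, against 383 and 378 CPM in control, H2-DMb1 204 and 221 CPM, against 163 and 130 CPM, and H2-DMb2 78.2 and 97.5 CPM, against 58.1 and 50.8 CPM. Their log2 fold changes were 0.44 ± 0.10, 0.57 ± 0.12 and 0.73 ± 0.14, with adjusted p of 0.0583, 0.0609 and 0.0664. None of the 3 overlapped between groups.

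Over the 12 class II side members, the median log2 fold change in macrophages was 0.59, beside -0.0004 over all genes tested, and 10 of the 12 had both liproxstatin libraries above both control libraries, beside 16.8% of all genes. Ctss, at 2515 and 2592 CPM with liproxstatin and 2487 and 2368 CPM in control, is among the 10, with a log2 fold change of 0.11 ± 0.10. Ifi30 ran the other way, at 658 and 738 CPM with liproxstatin and 780.1 and 744 CPM in control (-0.09 ± 0.10, adjusted p 0.756). H2-Oa overlapped between groups and had 0.277 to 0.421 CPM in the 4 libraries. The calls depended on single libraries, each left out in turn, and so did calls over all genes. Across these fits the log2 fold change ran from 0.43 to 0.77 for H2-Aa, 0.30 to 0.56 for H2-DMa and 0.43 to 0.75 for Ciita. DESeq2 called 7 members in macrophages, all higher, beside 1.98% of all genes, and edgeR with the replicate number as a block called 0.

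**Figure D2:**
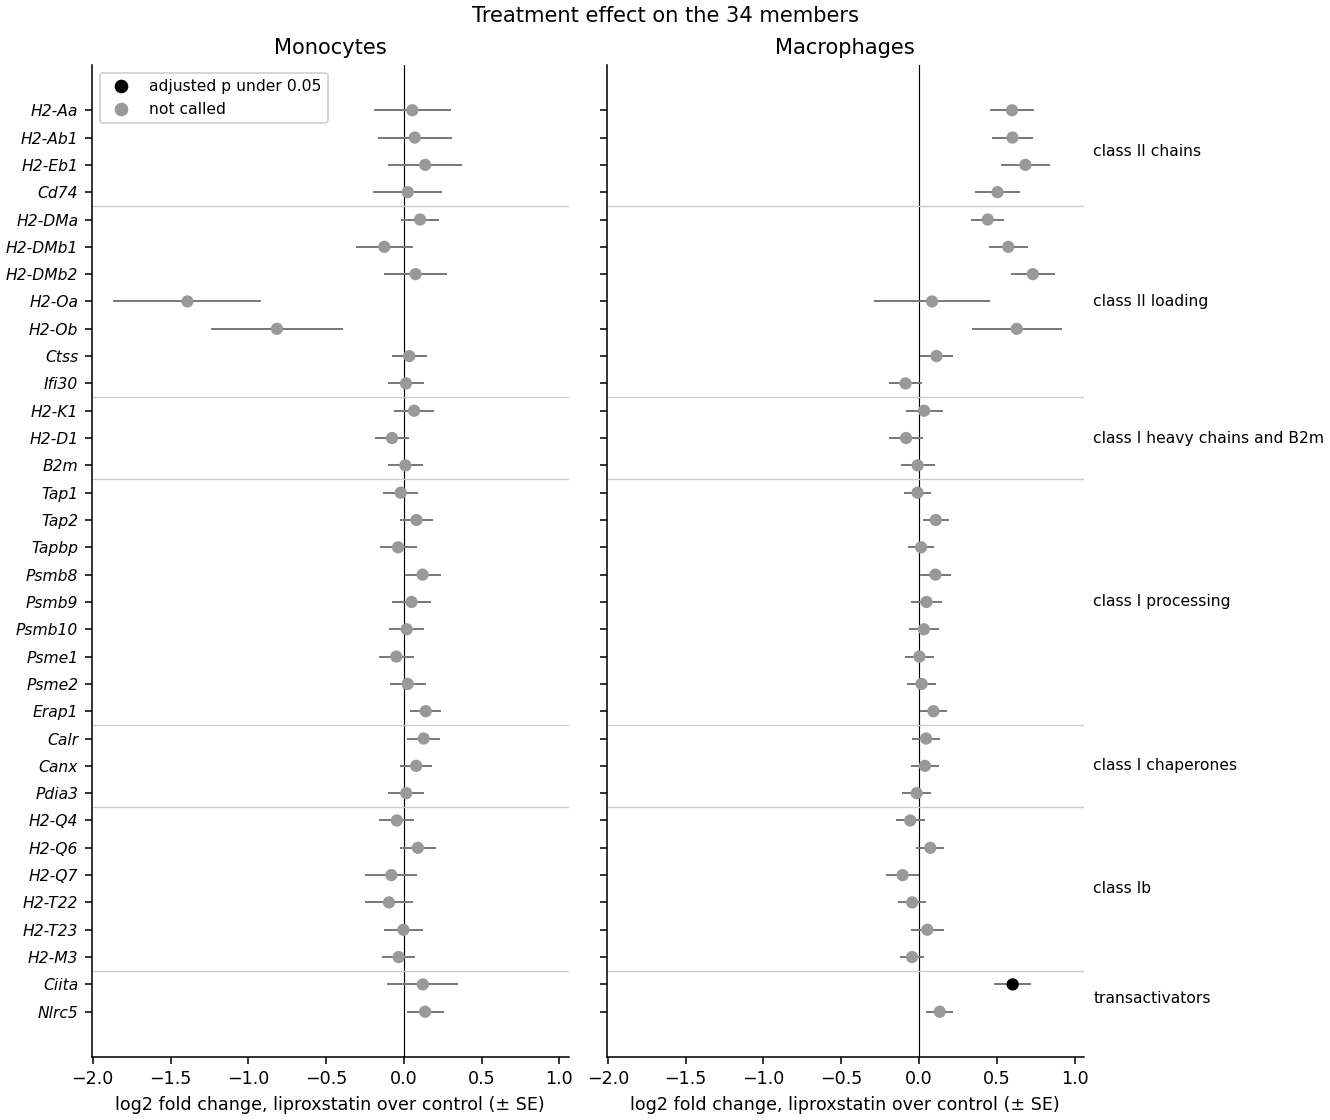
Log2 fold change of liproxstatin over control (x axis, ± SE, n = 2 libraries per group) for the 34 members in monocytes (left) and macrophages (right), grouped by role; black points have an adjusted p under 0.05 within that class. In macrophages 9 class II side genes lie between 0.44 and 0.73, with Ciita as the black point, while the class I side members lie between -0.11 and 0.13.

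Within macrophages, 3 subtypes held members past the threshold. These were cycling macrophages, with 6 of 33 tested members called higher beside 0.552% of all genes, resident-like macrophages, with 6 of 32 beside 0.562%, and Plau Ccnd1 macrophages, with 4 of 32 beside 0.266%. All 16 calls were class II chains or H2-DM genes, all were higher with liproxstatin, and no member was called lower in any of the 27 classes and subtypes tested. A member with few UMIs in a subtype was not tested: H2-Oa in cycling macrophages, and H2-Oa and H2-Ob in the other two.

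In cycling macrophages (453 and 484 liproxstatin cells, 279 and 570 control cells) both groups were tight. H2-Aa had 1144.5 and 1176 CPM with liproxstatin, against 773 and 721 CPM in control, and rose by a log2 fold change of 0.64 ± 0.09 (adjusted p 0.00832). H2-Ab1 rose to 971 and 999.9 CPM with liproxstatin, against 646 and 617 CPM in control (0.65 ± 0.09, adjusted p 0.00685). H2-Eb1 rose to 945 and 1003 CPM, against 606 and 551 CPM in control (0.76 ± 0.10, adjusted p 0.00485). The invariant chain Cd74, which escorts these chains, rose too, at 3595 and 3902 CPM with liproxstatin and 2668 and 2574 CPM in control (0.53 ± 0.10, adjusted p 0.0379). H2-DMb1 had 194 and 171 CPM with liproxstatin and 112 and 111 CPM in control (0.72 ± 0.09, adjusted p 0.00438), and H2-DMb2 had 75.7 and 76.3 CPM and 42.6 and 44.6 CPM (0.81 ± 0.09, adjusted p 0.00295). None of the 6 overlapped between groups. H2-DMa, at 433 and 466 CPM with liproxstatin and 322 and 344 CPM in control, had an adjusted p of 0.0579, and Ciita, at 14.6 and 15.9 CPM and 10.8 and 10.6 CPM, one of 0.0931.

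Resident-like macrophages, which carry the scavenger receptor Cd163 and the hyaluronan receptor Lyve1, gave like values at a lower level. H2-Aa had 742 and 793 CPM with liproxstatin and 523 and 532 CPM in control (log2 fold change 0.58 ± 0.11, adjusted p 0.0204). H2-Ab1 had 651 and 722 CPM with liproxstatin and 466 and 482 CPM in control (0.57 ± 0.11, adjusted p 0.0219), and H2-Eb1 had 607 and 763 CPM and 457 and 414 CPM (0.69 ± 0.13, adjusted p 0.0206). All 3 H2-DM genes passed. H2-DMa rose by 0.50 ± 0.11 (adjusted p 0.039), H2-DMb1, at 87.3 and 88.4 CPM with liproxstatin and 49.1 and 58.6 CPM in control, by 0.73 ± 0.11 (adjusted p 0.004), and H2-DMb2, at 32.9 and 37.2 CPM and 19.7 and 22.3 CPM, by 0.77 ± 0.13 (adjusted p 0.0081). Cd74 was not called there, at 2394 and 2869 CPM with liproxstatin and 1943 and 1983 CPM in control. The calls in the resident-like subtype depended on single libraries, as did its calls over all genes. With each library left out in turn, the log2 fold change ran from 0.51 to 0.64 for H2-Aa and 0.49 to 0.86 for H2-Eb1.

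Plau Ccnd1 macrophages, named for a plasminogen activator and a cyclin, had the lowest class II levels of the macrophage subtypes. H2-Aa had 472 and 547 CPM with liproxstatin and 308 and 307 CPM in control (log2 fold change 0.69 ± 0.12, adjusted p 0.0124). H2-Ab1 (0.71 ± 0.11, adjusted p 0.00791) and H2-Eb1 (0.74 ± 0.11, adjusted p 0.00733) rose alike. H2-DMb1, with 103 and 86.7 CPM in liproxstatin and 47.3 and 48.4 CPM in control libraries, had a log2 fold change of 0.95 ± 0.13 (adjusted p 0.00511), the largest of the 16 calls. Control replicate 1 holds 47 cells of this subtype, the fewest. Here too the calls, of members and over all genes, depended on single libraries. With each library left out in turn, the log2 fold change ran from 0.56 to 0.81 for H2-Aa and 0.84 to 1.05 for H2-DMb1.

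Other macrophage subtypes gave no call. Hypoxic macrophages had larger fold changes but a wider spread: H2-Eb1 had 487 and 715 CPM with liproxstatin and 273 and 248 CPM in control, a log2 fold change of 1.17 ± 0.22 with an adjusted p of 0.196. Ciita had 6.20 and 11.5 CPM there with liproxstatin and 3.83 and 3.91 CPM in control (1.14 ± 0.34, adjusted p 0.249). In hypoxic macrophages 6 of 32 tested members had an unadjusted p under 0.05, beside 12.1% of all genes, and 0 were called, beside 0.235% of all genes called higher. In the class II-rich Cxcl9 Cxcl13 cluster 8 members had an unadjusted p under 0.05, beside 7.08% of all genes, and 0 were called, beside 0.161% of all genes called higher. H2-DMb2 had the lowest adjusted p in that cluster, 0.117, at 139 and 174 CPM with liproxstatin and 102 and 115 CPM in control. Cd83 Rasgef1b macrophages had H2-Aa at 2848 and 2919 CPM with liproxstatin and 2961 and 2441 CPM in control, groups that overlapped (0.10 ± 0.13, adjusted p 0.916). In Cxcl14 Ms4a7 macrophages members went in both directions, and their lowest adjusted p was 0.148. The median log2 fold change of members there was 0.0115, beside 0.001 over all genes. In Ung Mcm6 macrophages the lowest adjusted p of members was 0.406, and their median log2 fold change was 0.0477, beside -0.004 over all genes. Whether the treatment effect differs between macrophage subtypes was not tested.

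**Figure D3:**
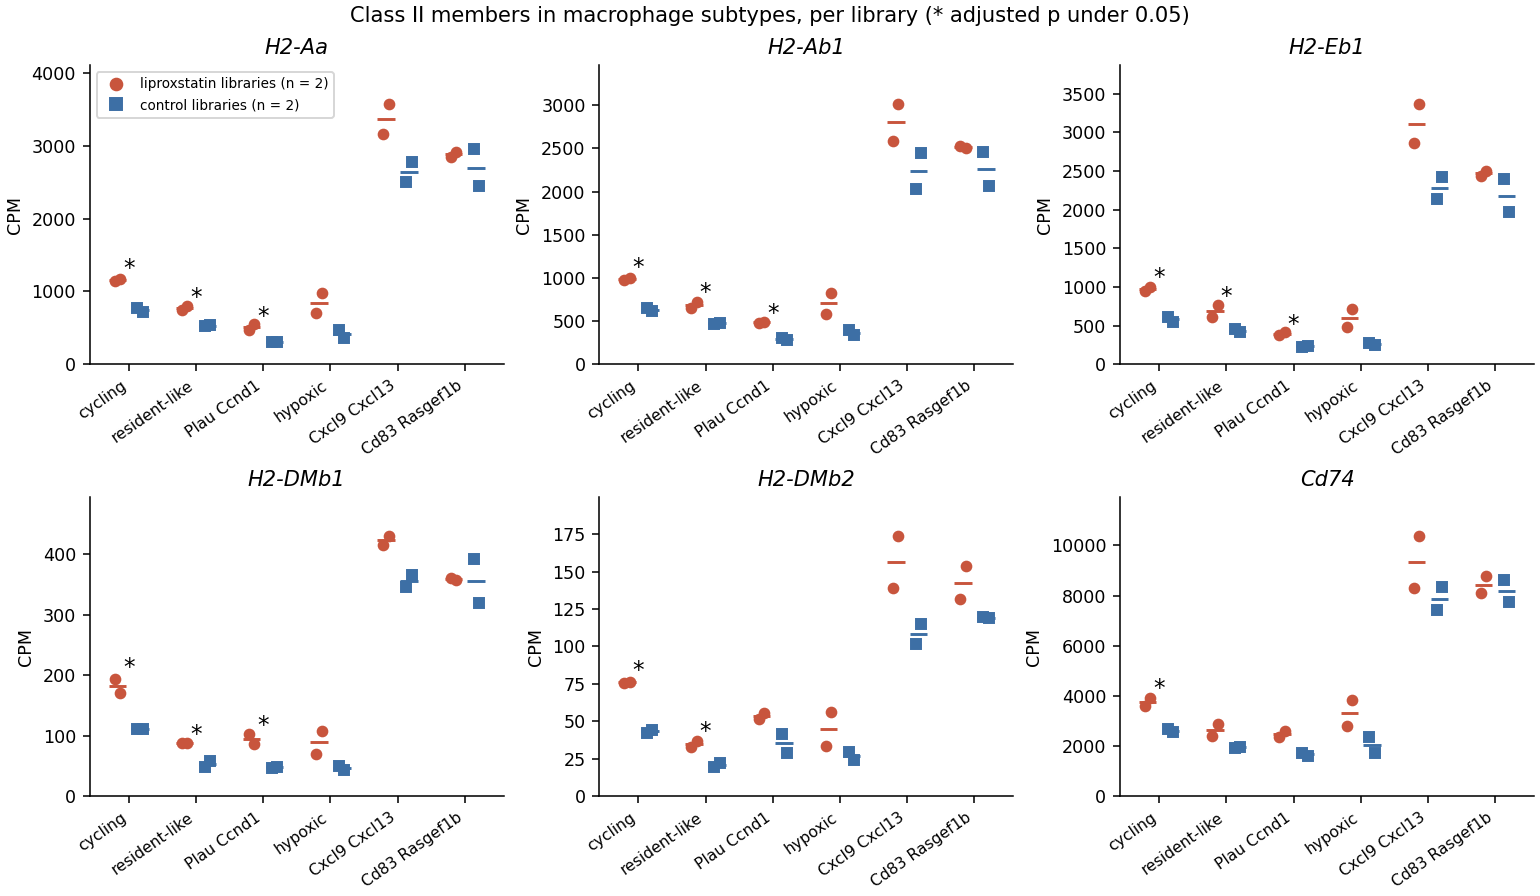
Level (CPM, linear axis from 0) of 6 class II members in 6 macrophage subtypes; points are libraries, liproxstatin (circles) left of control (squares), short lines are means of 2 libraries and asterisks mark an adjusted p under 0.05. The liproxstatin points of H2-Aa lie at 1144.5 and 1176 CPM in cycling macrophages, above the control points at 773 and 721 CPM, and the groups overlap in the Cd83 Rasgef1b subtype.

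The makeup of the macrophage class differed between the groups as well, which was not tested. As a share of mononuclear phagocytes (macrophages and monocytes together), the class II-rich Cd83 Rasgef1b cluster was 11.9% and 11% in liproxstatin libraries and 8.03% and 1.63% in control libraries. The class II-poor cycling cluster was 10.9% and 10.1% with liproxstatin and 14.7% and 16.6% in control, and the resident-like cluster 6.65% and 6.54% with liproxstatin and 10.3% and 11.1% in control. The class II-poor Ung Mcm6 cluster was 4.24% and 4.15% with liproxstatin and 5.39% and 11.2% in control. In the other macrophage clusters the groups overlapped. The class II-rich Cxcl9 Cxcl13 cluster was 8.09% and 11.15% with liproxstatin and 11.78% and 10.25% in control. The class II-poor hypoxic cluster was 13.13% and 10.85% with liproxstatin and 8.51% and 13.21% in control. The class II-poor Plau Ccnd1 cluster was 4.51% and 3.14% with liproxstatin and 2.48% and 3.57% in control. The Cxcl14 Ms4a7 cluster was 6.67% and 9.07% with liproxstatin and 7.13% and 8.45% in control. Of the monocyte clusters, Vcan F10 was 14.24% and 13.45% with liproxstatin and 10.09% and 9.00% in control. Chil3-high was 11.15% and 10.39% with liproxstatin and 10.04% and 7.26% in control. Nonclassical monocytes and the interferon-response cluster overlapped. With the same number of cells drawn from each cluster in every library, 0 members were called in macrophages, beside 45 of 13333 genes called higher. With the same number from each fine cluster, chosen after seeing the data, 2 were called (H2-DMb1 and H2-DMb2), beside 97 of 13228 genes. Both draws use fewer cells than the reported fit, in which 167 of 14265 genes were called higher. In the called subtypes, summed markers of cDC1 and cDC2 overlapped between the groups or were lower with liproxstatin. B cell markers are given for cycling macrophages only. Markers of the class II-rich macrophage clusters and of monocytes are not given for the called subtypes, and admixture was not tested. In cycling macrophages the 8 cDC1 markers summed to 285 and 279.8 CPM with liproxstatin and 261 and 285 CPM in control, the 6 cDC2 markers to 49.0 and 57.4 CPM and 58.4 and 48.8 CPM, and the 6 B cell markers to 13.4 and 12.2 CPM and 25.0 and 13.8 CPM, with Pax5 at 0. In Plau Ccnd1 macrophages the cDC1 markers summed to 249.7 and 236 CPM with liproxstatin and 254 and 223 CPM in control, and the cDC2 markers to 93.4 and 106 CPM and 161 and 118 CPM, with Flt3 and Ffar2 at 0. In resident-like macrophages the cDC1 markers summed to 203 and 195 CPM with liproxstatin and 199 and 209.6 CPM in control, and the cDC2 markers to 255 and 156 CPM and 270.4 and 217 CPM.

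Mononuclear phagocytes as a whole gave 0 of 34 calls with edgeR, beside 2.12% of all genes called in either direction. In that class 8 members had an unadjusted p under 0.05, all on the class II side, beside 16.4% of all genes. DESeq2 called 4 (Ciita, H2-Ab1, H2-DMa and H2-DMb2), all higher, beside 2.42% of all genes. The lowest adjusted p was that of H2-DMa, 0.112, at 469 and 552 CPM with liproxstatin and 415 and 397 CPM in control. Without control replicate 1, 8 members were called higher, beside 621 of 15103 genes, and without control replicate 2, 2 members, beside 378 of 14959 genes.

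Monocytes did not share the macrophage pattern. H2-Aa had 1583 and 2159 CPM in monocytes of liproxstatin libraries and 2166 and 1585 CPM in those of control libraries, a log2 fold change of 0.05 ± 0.25. Each group held 1 high and 1 low library, and the other chains did likewise. No member was called among 34 with edgeR or with DESeq2, beside 0.132% of all genes with edgeR, and 1 member had an unadjusted p under 0.05, beside 9.79% of all genes. That member was H2-Oa, at 0.237 and 0.549 CPM with liproxstatin and 1.08 and 1.08 CPM in control (-1.39 ± 0.48, adjusted p 0.35), and its partner H2-Ob had the next lowest p, at 0.435 and 0.549 CPM and 0.997 and 0.842 CPM (-0.82 ± 0.43, adjusted p 0.563). The peptide trimmer Erap1 came next, with a log2 fold change of 0.14 ± 0.10 (adjusted p 0.698). Without control replicate 1, H2-Eb1 was called higher in monocytes, beside 388 of 12682 genes.

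The difference between the 2 classes was tested directly, as a class by treatment interaction with the library as a block. For 7 of 34 members the treatment effect was lower in monocytes than in macrophages, beside 0.31% of all genes. The difference in log2 fold change, monocytes minus macrophages, was -0.53 ± 0.07 for H2-Aa (adjusted p 0.00116), -0.51 ± 0.08 for H2-Ab1 (0.00528), -0.53 ± 0.07 for H2-Eb1 (0.000506) and -0.46 ± 0.08 for Cd74 (0.00386). It was -0.33 ± 0.07 for H2-DMa (0.0247), -0.69 ± 0.07 for H2-DMb1 (2.38e-05) and -0.65 ± 0.08 for H2-DMb2 (9.52e-05). For Ciita it was -0.50 ± 0.13 with an adjusted p of 0.233. The class I side members gave differences between -0.04 and 0.10, none called. The interaction was not rerun with equal cell numbers per cluster, and the part of cluster makeup in it was not tested. Leaving out each library in turn gave 6 to 8 calls, and 6 of the 7 genes were called in every case, the exception being H2-DMa.

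On the class I side in macrophages, the 22 log2 fold changes ran from -0.11 to 0.13 with a median of 0.02, and no member had an unadjusted p under 0.05, beside 15.3% of all genes. H2-K1 had 2038 and 2289 CPM in liproxstatin libraries and 2309.5 and 2038 CPM in control libraries (0.03 ± 0.12). H2-D1 had 4136 and 4300 CPM with liproxstatin and 4754 and 4431 CPM in control (-0.08 ± 0.11), and B2m 3402 and 3436 CPM and 3704 and 3361 CPM (-0.01 ± 0.11). The transporter genes Tap1 and Tap2 differed by -0.01 ± 0.09 and 0.11 ± 0.08 and the immunoproteasome genes Psmb8 and Psmb9 by 0.11 ± 0.10 and 0.05 ± 0.10. The transactivator Nlrc5 had 17.1 and 16.6 CPM with liproxstatin and 15.6 and 15.9 CPM in control (0.13 ± 0.09, adjusted p 0.508). The class Ib genes H2-T23 (Qa-1, a ligand of NK cell receptors) and H2-M3 (which binds formylated peptides) differed by 0.05 ± 0.11 and -0.04 ± 0.08. A p above the threshold does not show that levels were equal.

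In neutrophils, the cells named in the series title, no member was called among 29 tested, with edgeR or with DESeq2, beside 0.223% of all genes with edgeR. With an unadjusted p under 0.05 there were 4, beside 8.17% of all genes. The class Ib gene H2-Q6 had 27.8 and 33.0 CPM in liproxstatin libraries and 11.4 and 16.4 CPM in control libraries (0.95 ± 0.35, adjusted p 0.478). The chaperone Pdia3 had 43.9 and 48.5 CPM with liproxstatin and 63.0 and 69.9 CPM in control (-0.57 ± 0.25, adjusted p 0.576), Cd74 had 198 and 191 CPM and 226 and 295 CPM (-0.46 ± 0.21, adjusted p 0.582), and H2-Eb1 had 74.7 and 87.0 CPM and 88.7 and 130.4 CPM (-0.54 ± 0.24, adjusted p 0.577). None of these 4 overlapped between groups. On the class I side 8 of 21 tested members had both liproxstatin libraries above both control libraries, beside 19.1% of all genes tested. The class I processing gene Psmb9 was one of them, at 151 and 187 CPM with liproxstatin and 140.2 and 126 CPM in control, and Nlrc5 another, at 27.3 and 33.0 CPM and 22.9 and 19.97 CPM (0.51 ± 0.33, adjusted p 0.775). H2-K1 overlapped, at 793 and 1109 CPM with liproxstatin and 939 and 710 CPM in control. Neutrophils were shallow, with medians of 3443 and 2755 UMIs per cell with liproxstatin and 3675 and 3677 in control, and control replicate 1 held 98 of them. Without control replicate 1, H2-Q7 was called higher and H2-Eb1 lower, beside 137 and 141 of 6803 genes. The treatment effect in neutrophils was not called different from that in mononuclear phagocytes for any member with edgeR (0 called, beside 0.0587% of all genes), and without control replicate 1 it was called lower in neutrophils for 4 (H2-Aa, H2-Ab1, H2-Eb1 and Cd74), beside 112 of 14702 genes. With the expected free RNA subtracted, described next, H2-Eb1 in neutrophils had a log2 fold change of -2.27 (adjusted p 0.101). The subtraction covered 85.83% and 81.02% of its UMIs with liproxstatin and 69.55% and 38.67% in control, so few remained outside control replicate 2. In that fit 0 members were called, beside 3 genes called higher and 2 lower of 5327.

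A large part of the class II UMIs of neutrophils lay within an estimate of free RNA. Droplets take up RNA of broken cells, and its amount was estimated in each library from C1qa, C1qb and C1qc, complement genes of macrophages, set against their share over all barcodes. C1q UMIs can also come from macrophages stuck to or engulfing the cell, which would raise the estimate. It need not be an upper one for every gene. For S100a8, abundant in neutrophils, it covered 79.5% and 104.8% of the UMIs of CD8 T cells with liproxstatin and 30.95% and 57.57% in control. The estimate gave 5.49% and 5.16% of neutrophil UMIs in liproxstatin libraries and 5.38% and 6.03% in control libraries. At that rate free RNA would account for 71.1% and 84.5% of the H2-Aa UMIs of neutrophils with liproxstatin and 62.3% and 43.0% in control, and for 110.3% and 130.2% of Cd74 with liproxstatin and 97.8% and 65.8% in control. For H2-K1 it would account for 14.0% and 10.6% with liproxstatin and 12.9% and 17.5% in control, so most H2-K1 UMIs lie above the estimate. The share was larger for some class I side genes, such as Pdia3, at 50.4% and 42.1% with liproxstatin and 37.1% and 34.7% in control. CD8 T cells, which make little class II, served as the background: the expected share was 102.5% and 116.7% of their H2-Aa with liproxstatin and 94.4% and 68.9% in control. It was lower for other class II side genes of CD8 T cells, at 61.1% and 60.1% of H2-Ab1 with liproxstatin and 87.0% and 38.5% in control, and at 27.0% and 21.6% of H2-DMa with liproxstatin and 56.1% and 23.2% in control, so the estimate did not cover all class II side UMIs of that class.

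The share of cells with an H2-Aa UMI was also compared at equal depth. With every cell thinned to 1500 UMIs, it was 12.5% and 13.04% of neutrophils in liproxstatin libraries and 16.9% and 11.1% in control libraries, beside 4.02% and 3.39% of CD8 T cells with liproxstatin and 15.5% and 4.80% in control. Unthinned, it was 25.0% and 18.1% of neutrophils with liproxstatin and 28.6% and 21.7% in control, and 29.9% and 21.6% of CD8 T cells and 42.0% and 31.5% in control. The neutrophil share in control replicate 1 is close to that of CD8 T cells in the same library. CD8 T cells of control replicate 1 also had the highest free RNA estimate, 6.82% of their UMIs, beside 1.94% and 1.49% in the liproxstatin libraries and 2.23% in control replicate 2. The 4 class II chains of CD8 T cells had lower levels with liproxstatin, for H2-Aa 27.9 and 21.2 CPM beside 110.0 and 34.8 CPM in control, and none was called, beside 0.541% of all genes. For macrophages the thinned share was 53.4% and 57.9% with liproxstatin and 46.9% and 42.1% in control, and for dendritic cells 96.8% and 97.2% and 92.2% and 96.2%.

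**Figure D4:**
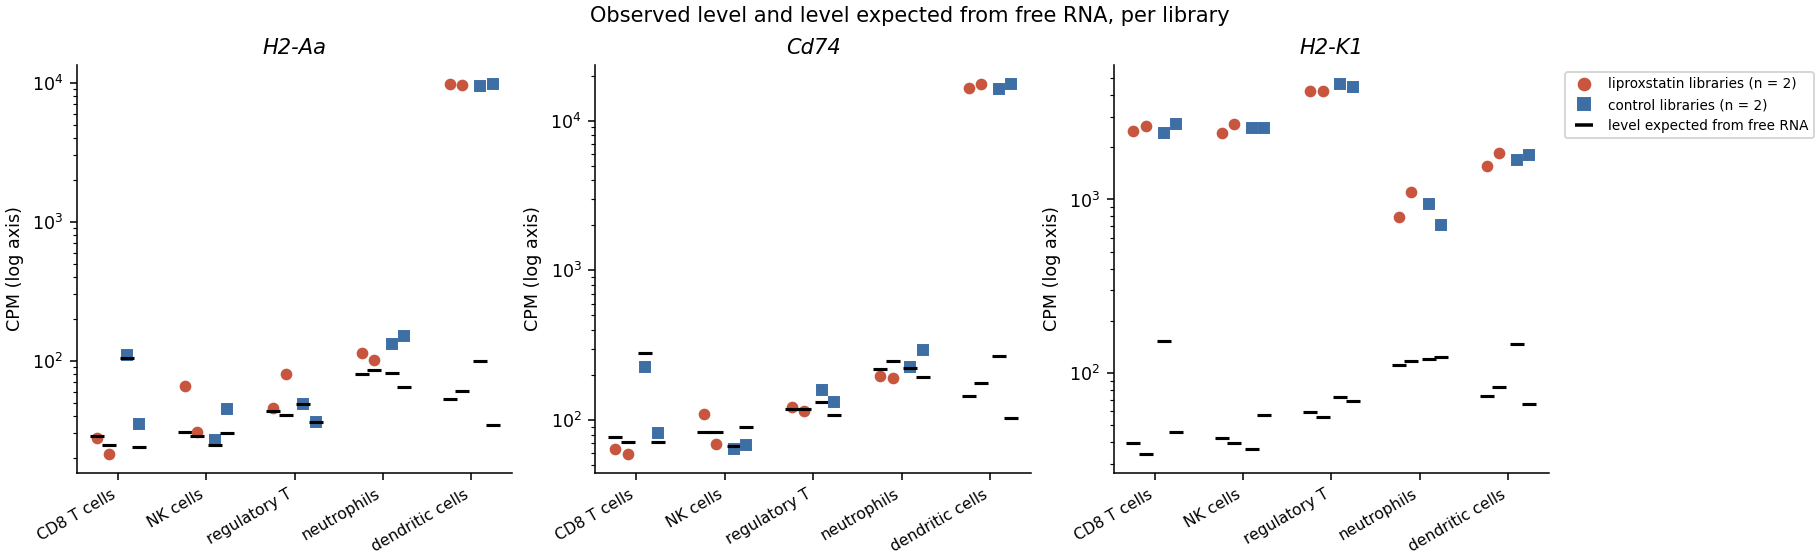
Observed level (CPM, log axis, points) of H2-Aa, Cd74 and H2-K1 in 5 classes per library, liproxstatin (circles) left of control (squares), with the level expected from free RNA (black dashes). In CD8 T cells, NK cells, regulatory T cells and neutrophils the expected level is 43.0% to 116.7% of the observed H2-Aa and 65.8% to 131% of Cd74. In dendritic cells the expected level is 0.352% to 1.05% of the observed H2-Aa, and H2-K1 lies above the dashes in every class shown.

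Dendritic cells, the richest in class II, had no call among 34 members with edgeR or DESeq2, beside 0.141% of all genes with edgeR. H2-Aa had 9788 and 9634.5 CPM in liproxstatin libraries and 9455 and 9855 CPM in control libraries (0.06 ± 0.06). Ciita had 180.4 and 195.5 CPM with liproxstatin and 158 and 190.4 CPM in control (0.16 ± 0.11). The 2 members with an unadjusted p under 0.05, beside 7.25% of all genes, were both lower with liproxstatin. H2-DMb1 had 594 and 582 CPM with liproxstatin and 706 and 758 CPM in control (-0.27 ± 0.08, adjusted p 0.474), and H2-Q7 206 and 236 CPM and 260.4 and 299.9 CPM (-0.29 ± 0.11, adjusted p 0.56). H2-Q4, another class Ib gene, had the third lowest p (-0.27 ± 0.15, adjusted p 0.732). H2-DMb1 was lower in both main subtypes, by -0.28 ± 0.11 in cDC1 and -0.31 ± 0.11 in cDC2, neither called. H2-Oa, at 0.277 to 0.421 CPM in macrophages, had 67.5 and 73.5 CPM in dendritic cells with liproxstatin and 63.0 and 67.6 CPM in control. The treatment effect in dendritic cells was not called different from that in mononuclear phagocytes for any member, beside 0.154% of all genes, but without control replicate 1 it was called lower for 10, beside 131 of 15172 genes.

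**Figure D5:**
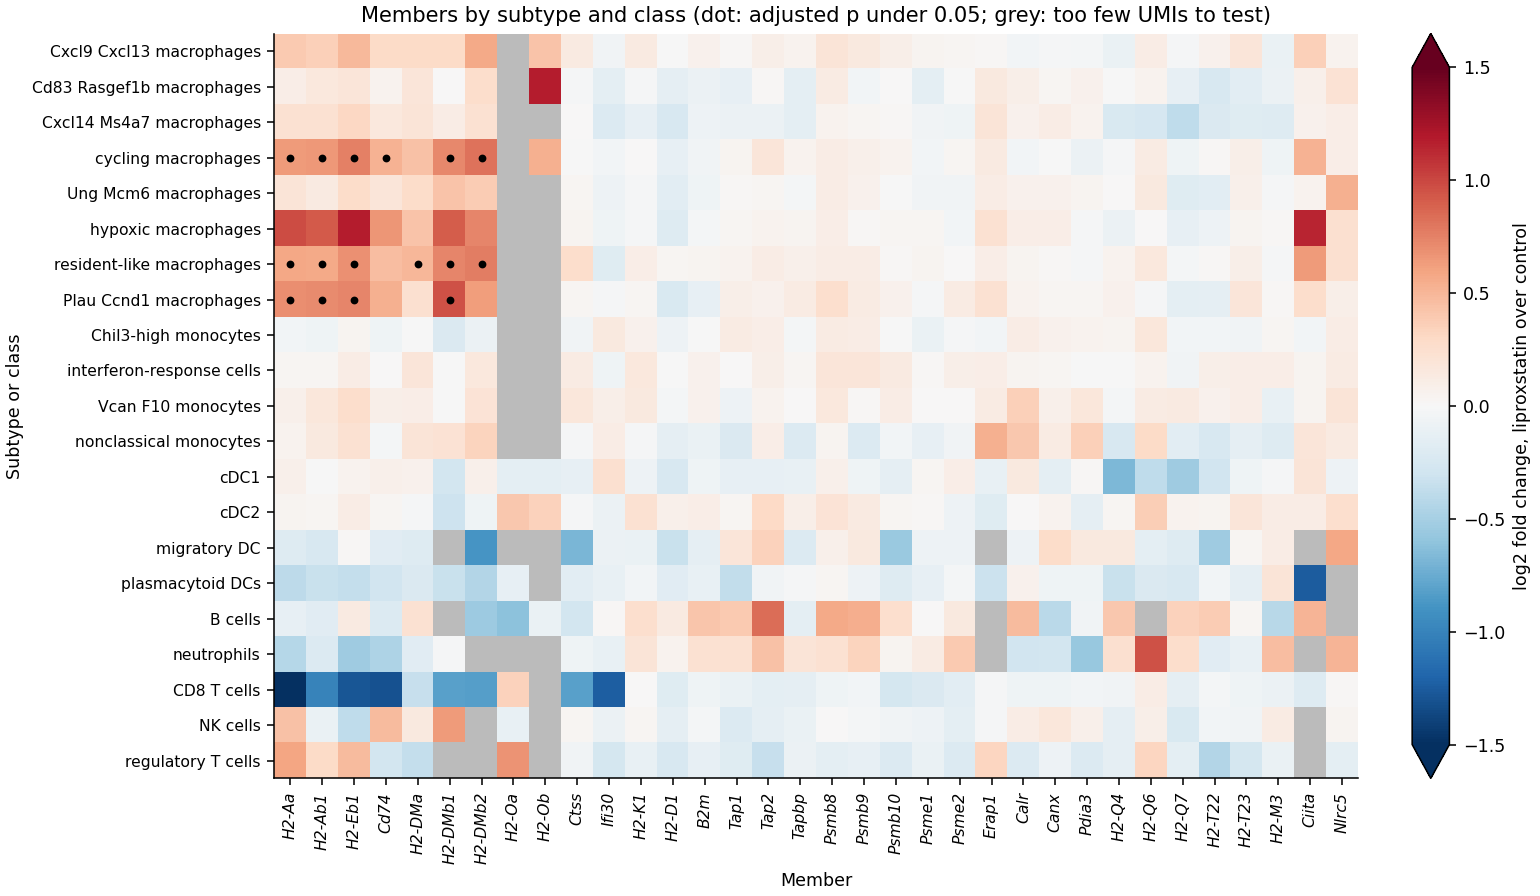
Log2 fold change of liproxstatin over control (colour, red higher with liproxstatin) for each member (columns) in 21 subtypes and classes (rows); dots mark an adjusted p under 0.05 and grey cells had too few UMIs for the test. The dots lie in the class II columns of cycling, resident-like and Plau Ccnd1 macrophages, and the class I columns are pale in every macrophage row.

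Other genes of the pathway gave few calls. Of 40 further genes of antigen presentation and its control found in the files (transcription factors, proteases, ubiquitin ligases, MHC-like genes), 39 were tested in macrophages and none was called with edgeR, beside 1.87% of all genes in either direction. Irf1, a transcription factor that activates class I genes, had a log2 fold change of 0.14 (adjusted p 0.459). Rfx5, a subunit of the X box factor, had -0.07, Irf8 0.08 and March1, the ubiquitin ligase that removes class II from the surface, 0.08. Across all 27 fits 2 pathway genes passed. Fcgrt, the neonatal Fc receptor and an MHC class I relative, fell in mononuclear phagocytes to 188 and 212 CPM with liproxstatin, against 283 and 278 CPM in control (-0.44 ± 0.10, adjusted p 0.0474), and in cycling macrophages to 133 and 153 CPM, against 238 and 216 CPM (-0.66 ± 0.10, adjusted p 0.0127). Cd83, which opposes March1, fell in NK cells to 9.04 and 12.7 CPM with liproxstatin, against 22.9 and 31.8 CPM in control (-1.33 ± 0.22, adjusted p 0.0468).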

How the data were processed

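The deposited values are counts of UMIs per gene and barcode, not normalized, with a matrix for each of the 4 libraries. Cell Ranger 6.1.1 is named in their headers (per the file headers). Cell Ranger 4 and build mm10 are listed in the submitters' processing notes, so which version was used is unresolved. Replicate numbers follow the labels' titles, since those in the file names differ. Cells with at least 200 genes and at most 15% mitochondrial UMIs were kept. Scrublet scores (scanpy 1.11.5) ranked the cells, and the top 0.8% for each 1000 barcodes, 3.30% to 7.44% of the cells by library, were called doublets and left out of the sums. After the members and technical genes had been left out, 2253 of 3000 variable genes, 40 principal components and 20 neighbours gave 28 Leiden clusters at resolution 1, with no batch integration. 4 of them stayed unnamed, and subtypes came from 40 clusters at resolution 2. Each class of 20 or more cells per library was fitted on its own with edgeR 4.0.16 (R 4.3.3): filterByExpr, TMM, robust quasi-likelihood F test. SEs were taken as the size of the log2 fold change over the root of F. With 2 libraries per group an exact permutation test of a single value cannot give a two-sided p below 0.3333, so none is reported. Free RNA was estimated as described with its results, and intervals on it were not computed. Genes named with values are the chains, the loading and class I genes of a fixed list, every member past the threshold in any fit, the 3 members of lowest p in each main class and, of the pathway list (40 of 47 symbols found in the files), the genes called anywhere and 5 regulators, of which 1 is not reported here. The members and lists were chosen with earlier results of these data known. Alternatives covered normalization, the test (DESeq2 1.42.0), the count filter, a replicate block, each library left out, doublets, clustering resolution, equal cell numbers and a gate per cell. The edgeR step was tested on simulated data.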

Additional observations from a re-analysis of the deposited data

Results flagged for a closer look

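For 7 members the treatment effect differed between 2 cell classes by a test of the difference itself (an edgeR interaction of class and treatment, with the library as a block). The log2 fold change in monocytes minus that in macrophages was -0.53 for H2-Aa, -0.51 for H2-Ab1, -0.53 for H2-Eb1, -0.33 for H2-DMa, -0.69 for H2-DMb1, -0.65 for H2-DMb2 and -0.46 for Cd74. All 7 are class II chains or H2-DM genes. Depth differed between the classes and groups, with median UMIs per monocyte of 16325.5 and 12616 in liproxstatin libraries and 17076 and 16666 in control libraries, and per macrophage of 29463 and 24480 with liproxstatin and 33932 and 34120 in control. The shares of macrophage clusters and of monocyte clusters differed between the groups as well. The parts of depth and of cluster makeup in the result were not tested.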

How the results depend on the processing

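Calls of members depended on the libraries and the test, and the cause was not tested except where fewer cells or genes enter by construction. With 2 libraries per group, leaving 1 out leaves a lone sample that is assumed to vary like the other group. Leaving out each library in turn gave 0 to 8 calls in mononuclear phagocytes and in macrophages, 0 to 1 in monocytes, 0 to 2 in neutrophils, 0 to 0 in dendritic cells, 0 to 4 for neutrophils against mononuclear phagocytes, 0 to 10 for dendritic cells against mononuclear phagocytes and 6 to 8 for monocytes against macrophages. In cycling, resident-like and Plau Ccnd1 macrophages the calls changed as well. H2-Eb1 then had log2 fold changes of 0.67 to 0.84, 0.49 to 0.86 and 0.65 to 0.81, in that order. Calls over all genes also changed with the library left out. In mononuclear phagocytes (0 calls in the reported fit) DESeq2 called 4, edgeR without a count filter 8, and equal cells per fine cluster 2, all higher, beside 355 of 14669, 717 of 21579 and 72 of 13602 genes called higher. In macrophages (1 call) they called 7, 8 and 2, and equal cells per cluster, which uses fewer cells, called 0. RLE normalization gave 1 call, H2-Eb1, for neutrophils against mononuclear phagocytes. The replicate block called 0 members in macrophages, 8 in cycling, 6 in resident-like and 4 in Plau Ccnd1 macrophages. In these subtypes it called 315 of 11956, 109 of 11207 and 43 of 10145 genes higher, in that order. The reported fits called 66, 63 and 27 genes higher. Over all genes, macrophages had 167 calls higher and 100 lower with liproxstatin, against 602 and 406 without a count filter, 282 and 155 with DESeq2, 108 and 34 with the block, 45 and 10 with equal cells per cluster and 97 and 36 with equal cells per fine cluster. With 1 library left out the pair was 1 and 0 (liproxstatin replicate 1), 21 and 0 (liproxstatin replicate 2), 460 and 222 (control replicate 1) and 321 and 349 (control replicate 2). The samples share only a number: deviations of same-numbered libraries correlated by -0.01 to 0.12 in the 5 main classes. In macrophages the marker gate per cell called H2-DMa in place of Ciita. The gate turned H2-Eb1 in neutrophils to 1.01 (adjusted p 0.52) and H2-Q4 in dendritic cells to 0.0121 (0.99), and 37.1% of the gated dendritic cells lay in the clustered class. H2-Eb1 in neutrophils was -0.54 as reported and -2.27 with free RNA subtracted, which left few of its UMIs outside control replicate 2. Of the single-gene values, 445 kept direction and side of the threshold, 58 passed newly, 33 no longer passed and 2 reversed. The fine clusters and all alternatives for subtypes were chosen after seeing the data. Class II in neutrophils and B cell values are limited by shallow cells and few cells.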

Other observations

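Plasmacytoid dendritic cells (90 and 104 cells in liproxstatin libraries, 62 and 63 in control libraries), known mainly as makers of type I interferon, had lower values of class II genes with liproxstatin. H2-Aa had 1606 and 1278 CPM with liproxstatin and 1893 and 1906 CPM in control (log2 fold change -0.39 ± 0.11, adjusted p 0.213), and Ciita 17.6 and 10.4 CPM and 26.3 and 42.3 CPM (-1.25 ± 0.34, adjusted p 0.213). Of 11 class II side members tested, 9 had both liproxstatin libraries below both control libraries, beside 19.6% of all genes. No member was called by edgeR among 32 tested, beside 0.174% of all genes, and DESeq2 was not run in this class. Whether this effect differs from that in macrophages was not tested.

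Regulatory T cells, the class with the most class I RNA, had lower class I values with liproxstatin: H2-D1 had 6720.3 and 6344.5 CPM with liproxstatin and 7707 and 7680 CPM in control (-0.24 ± 0.09, adjusted p 0.478), and the class Ib gene H2-T22 395 and 368 CPM and 558 and 482 CPM (-0.44 ± 0.15, adjusted p 0.306). Of 22 class I side members, 14 had both liproxstatin libraries below both control libraries, beside 18% of all genes, 4 had an unadjusted p under 0.05, beside 7.46%, and none was called by edgeR, beside 0.306% of all genes. Lower values were not particular to this class. Over all members tested, the median log2 fold change was -0.14 here, -0.13 in CD8 T cells and -0.15 in other T cells. Over all genes it was -0.002, -0.0082 and -0.0017, in that order.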
